A study of Homo sapiens with 15 samples.

Results

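The desmosome genes were followed through 2 oral cancer cell lines and a normal oral epithelial line. They were chosen by symbol as the core genes of the junction, with earlier results of these data known. All 10 (DSG2, DSG3, DSC2, DSC3, JUP, PKP1, PKP2, PKP3, DSP and PERP) were present among the 12995 genes of each expression table. RNA was sequenced from the 3′ end in 15 libraries, 3 for each of 5 groups. OKF6 is the normal line, wild type and without a construct. SCC15 and SCC25 are the cancer lines, and both carried Cas9 and a doxycycline-inducible guide construct against YBX1, in pools of cells sorted for GFP and mCherry rather than in clones. The groups SCC15 +YBX1 and SCC25 +YBX1 received no doxycycline, and SCC15 -YBX1 and SCC25 -YBX1 received 1 µg/ml for 3 days. The labels do not say whether the replicates were separate cultures, so the p-values below measure only the spread between these libraries, which may be technical.

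Desmosomes are the junctions that fasten neighbouring epithelial cells to each other and tie the contact to the keratin filaments inside. Desmogleins and desmocollins are cadherins that bind across the gap between the cells in the presence of calcium. Inside the membrane, plakoglobin (JUP) and the plakophilins form a plaque of armadillo-repeat proteins, and desmoplakin (DSP) links that plaque to keratin. DSG2, DSC2 and PKP2 are also found in simple epithelium, while DSG3, DSC3 and PKP1 belong to stratified epithelium such as oral mucosa.

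The 4 cadherin genes lie on chromosome 18, within a cluster of 0.56 Mb (hg38, chr18:30989365-31549008, GENCODE v44). The order is DSC3, DSC2, DSC1, DSG1, DSG4, DSG3 and DSG2, with the desmocollins on the minus strand and the desmogleins on the plus strand. DSC3 spans chr18:30989365-31042815 and DSC2 chr18:31058840-31102522. DSG3 (chr18:31447741-31478702) and DSG2 (chr18:31498177-31549008) are neighbours with the same orientation, and they are shown here because their levels parted most among the cadherins. The sequences are the 250 bases before each start, from RefSeq on GRCh38.p14, plus strand, 5′ to 3′, at chr18:31497927-31498176 for DSG2 and chr18:31447491-31447740 for DSG3. Capitals mark CACCTG on either strand, the E-box that ZEB and SNAI repressors can bind.

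DSG2: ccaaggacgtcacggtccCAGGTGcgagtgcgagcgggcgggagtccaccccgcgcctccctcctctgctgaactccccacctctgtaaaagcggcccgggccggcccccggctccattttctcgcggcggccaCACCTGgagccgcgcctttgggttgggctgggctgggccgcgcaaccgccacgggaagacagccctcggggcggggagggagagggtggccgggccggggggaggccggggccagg

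DSG3: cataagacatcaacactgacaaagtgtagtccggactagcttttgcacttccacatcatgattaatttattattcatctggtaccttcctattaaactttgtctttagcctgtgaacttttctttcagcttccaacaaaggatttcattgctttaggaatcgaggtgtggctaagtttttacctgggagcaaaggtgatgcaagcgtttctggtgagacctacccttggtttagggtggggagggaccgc

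The pair differ in base composition. The DSG2 stretch is 75.2% G and C with 26 CpG sites, and the DSG3 stretch is 42.8% with 4. Over the 15053 promoters of genes in the tables the medians were 64.8% and 20.0 sites, and 6.11% had a G and C content at or below that of DSG3. Of the 10 genes, 8 had at least 1 promoter entry, 10 entries in all, since DSC2 and JUP had 2 each and PKP2 and PKP3 had no entry. The E-box stood in 4 entries (DSP, DSG2, DSC2 and JUP), against 15.89% of all 15053. The AP-1 letters TGANTCA stood in 1 entry (PERP) against 4.52%, and CCAAT, the inverted Y-box that Y-box proteins such as YBX1 can recognise, in 2 entries (DSC3 and JUP) against 32.82%. The GRHL letters AACCNGTT stood in 0 entries against 1.22%. All were searched on both strands, and DSG3 and PKP1 held none of the 4. A match describes these letters only and says nothing of binding.

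Counted reads lay between 4075290 and 6118501 per library, and 1 read was worth at most 0.226 CPM (the read count of a gene after scaling for library size). A group with at most 3 reads of a gene over its 3 libraries together is treated as at the floor. Ratios of pooled reads, with a counting interval, are given only where a group had 1 to 10 reads in all, against a group with more. Where a group had 0 reads, the bound is set with 3 reads over the group. Both cover counting error only. OKF6 replicate 1 stood furthest from its mates, with a mean absolute log2 difference of 0.692 over 6497 well expressed genes against 0.200 to 0.553 in the other 14 libraries, and results that it decides are given without it. SCC15 was grown in DMEM with serum, whereas the medium of OKF6 and SCC25 was serum-free and made for keratinocytes. The latter medium was supplemented with growth factors, EGF among them, and with calcium chloride. The calcium level of the SCC15 medium is not given. Where SCC15 is compared with SCC25 or OKF6, the line and its medium cannot be told apart. Both cancer lines carried the construct and OKF6 did not, so against OKF6 the line and the construct cannot be told apart either. The epithelial label was checked against 8 markers. Their summed level was 10892 to 22143 CPM in OKF6 and 5778 to 12489 in SCC25 +YBX1, but 63.1 to 77.8 in SCC15 +YBX1, where CDH1, the epithelial cadherin, had 1 to 14 reads and KRT14 4 to 20. KRT18, a keratin of simple epithelium, had 280 to 351 reads there. The SCC15 libraries therefore carried little of the epithelial marker set, and its part in the results below was not tested. The 8 mesenchymal markers summed to 419 to 443 CPM in SCC15 +YBX1, 2525 to 3224 in SCC25 +YBX1 and 849 to 1724 in OKF6, where CDH2 and FBN1 had 0 reads. FN1 was the highest of them in OKF6, at a mean log2 CPM of 9.93 against 4.12 in SCC15 +YBX1. The sum therefore does not rank the lines marker by marker. In the test described below, 5 of the 8 were higher and 2 lower in SCC15 than in OKF6, beside 26.9% and 23.4% of all genes. Of 7 fibroblast markers 2 were measured, COL1A1 and LUM, with a summed level of at most 97.9 CPM in the +YBX1 and OKF6 libraries.

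SCC15 had lower RNA of all 10 desmosome genes than SCC25, and lower RNA of all 10 than OKF6. The fall was partial for DSG2, DSC2, DSC3, JUP, PKP2, DSP and PERP and left almost no reads for DSG3, PKP1 and PKP3. With limma and a Benjamini-Hochberg adjusted p under 0.05 over all genes, 10 of 10 were called lower in SCC15 than in SCC25, where 23.6% of all genes were, and 10 of 10 lower than in OKF6, where 23.4% were. None was called higher, against 20.0% and 26.9% of all genes. The replicates of all 10 lay below SCC25 without overlap (34.1% of all genes) and below OKF6 without overlap (25.5%). The median log2 change over the 10 was -3.10 against SCC25 and -3.94 against OKF6, beside -0.01 and 0.10 over all genes. These comparisons share the SCC15 libraries. In bulk RNA, fewer cells of a type and less RNA per cell cannot be told apart.

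**Figure D1:**
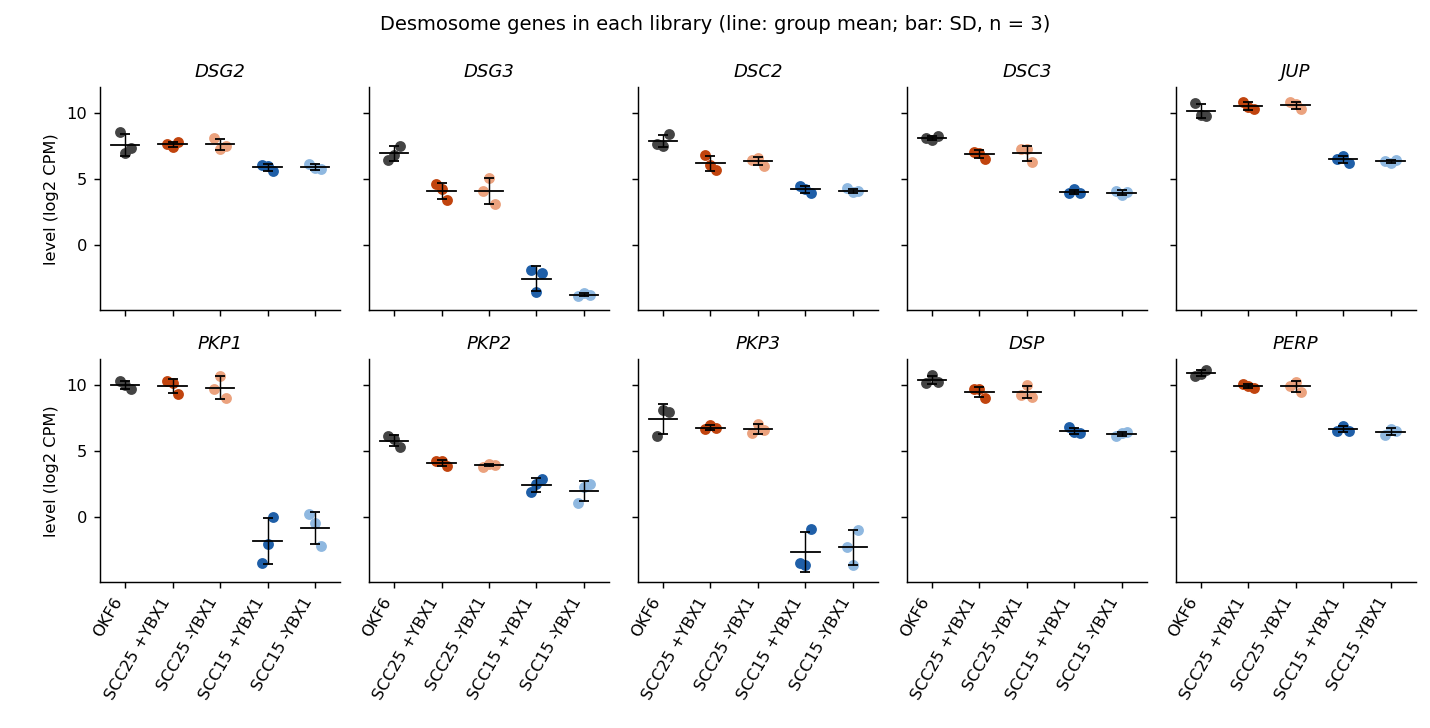
Level of each desmosome gene (log2 CPM, y axis) in each library of the 5 groups (x axis), with the group mean as a line and the SD as a bar (n = 3). All 3 SCC15 +YBX1 points lie below every OKF6 and SCC25 +YBX1 point in each panel, and DSG3, PKP1 and PKP3 lie near or below 0 in SCC15.

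Among the cadherins, DSG3, the desmoglein of stratified epithelium and the main antigen in pemphigus vulgaris, was nearly lost in SCC15. It had 86.6, 115 and 183 CPM in the 3 OKF6 libraries, 24.8, 18.9 and 10.4 CPM in SCC25 +YBX1, and 1, 0 and 1 reads in SCC15 +YBX1. The groups did not overlap. Pooled over libraries, SCC25 +YBX1 had 164 times the DSG3 level of SCC15 +YBX1 (95% counting interval 44.9 to 1359) and OKF6 had 1176 times (325 to 9717). Leaving out each SCC15 library in turn gave 110 to 227 times and 787 to 1631 times, the lowest without replicate 2. The fitted log2 changes of -6.61 (adjusted p = 4.11e-06, limma) and -9.45 (adjusted p = 3.47e-07, limma) depend on the 0.5 reads added to each count, and with 1 CPM added instead they were -4.02 and -6.79.

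DSG2, the desmoglein found in all tissues that make desmosomes, kept a clear level in SCC15. It had 67.6, 61.5 and 48.2 CPM there, against 195, 173 and 218 in SCC25 +YBX1 and 369, 122 and 158 in OKF6. Every SCC15 library was below every library of the others, at a log2 change of -1.73 ± 0.35 (SE, adjusted p = 0.00216, limma) against SCC25 and -1.72 ± 0.35 (adjusted p = 0.00183) against OKF6, or -1.24 (adjusted p = 0.000354) without OKF6 replicate 1. This was 3.32-fold and 3.28-fold lower.

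The desmocollins, the partner cadherins, were lower to an intermediate degree. DSC2, the widely expressed member, had 21.5, 19.1 and 15.4 CPM in SCC15 +YBX1, 111, 67.8 and 51.6 in SCC25 +YBX1 and 202, 182 and 334 in OKF6. It was 3.93-fold lower than in SCC25 (log2 change -1.97 ± 0.31, adjusted p = 0.000456, limma) and 12.4-fold lower than in OKF6 (-3.64 ± 0.31, adjusted p = 3.94e-06). DSC3, the desmocollin of basal layers of stratified epithelium, had 84, 110 and 99 reads in SCC15 +YBX1, a mean of 16.4 CPM, against 134, 127 and 90.4 CPM in SCC25 +YBX1 and 269, 242 and 302 in OKF6. The 3 groups were separate, with DSC3 7.07-fold lower in SCC15 than in SCC25 (adjusted p = 1.58e-06, limma) and 16.5-fold lower than in OKF6 (adjusted p = 1.66e-07).

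In the plaque, PKP1 and PKP3 were nearly lost while PKP2 and JUP were reduced. PKP1 (chr1:201283452-201332993), the plakophilin of suprabasal cells, had 1258, 1002 and 837 CPM in OKF6 and 1236, 1115 and 633 in SCC25 +YBX1. SCC15 +YBX1 had 0, 1 and 6 reads of it. The pooled PKP1 level was 2572 times higher in SCC25 than in SCC15 (95% counting interval 1248 to 6398) and 2623 times higher in OKF6 (1273 to 6526). These ratios rest on SCC15 +YBX1 replicate 3, which held 6 of the 7 reads, and without it they were 11478 (2060 to 453386) and 11708 (2101 to 462489).

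PKP3 (chr11:392614-404908), which binds most desmosomal proteins, had 0, 0 and 3 reads in SCC15 +YBX1 against 99.2, 126 and 105 CPM in SCC25 +YBX1 and 69.9, 279 and 251 CPM in OKF6. The pooled ratio was 655 (95% counting interval 224 to 3182) for SCC25 and 1185 (405 to 5748) for OKF6. All 3 SCC15 reads were in replicate 3, and without it PKP3 was at least 418-fold and 755-fold lower in SCC15, with 3 reads over the group as the floor. The fitted changes of both plakophilins passed the threshold against either line, and with 1 CPM added they were -9.51 and -9.60 for PKP1 and -6.60 and -7.24 for PKP3 against SCC25 and OKF6.

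PKP2 (chr12:32790745-32896798), the plakophilin of simple epithelium and heart muscle, stayed measurable in SCC15, at 3.64, 5.56 and 7.39 CPM. SCC25 +YBX1 had 19.4, 18.5 and 14.3 and OKF6 69.7, 60.4 and 39.1. The groups did not overlap, and PKP2 was 3.21-fold lower in SCC15 than in SCC25 (log2 change -1.68 ± 0.34, adjusted p = 0.00234, limma) and 10.2-fold lower than in OKF6 (-3.35 ± 0.34, adjusted p = 1.38e-05).

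JUP (chr17:41754604-41786931) encodes plakoglobin, which also sits at adherens junctions. It had 91.6, 107 and 72.8 CPM in SCC15 +YBX1, 1834, 1380.0 and 1227 in SCC25 +YBX1 and 1669, 913 and 863 in OKF6. The SCC15 level was 16.3-fold below SCC25 (log2 change -4.03 ± 0.29, adjusted p = 1.38e-06, limma) and 12.2-fold below OKF6 (-3.61 ± 0.29, adjusted p = 2.15e-06).

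DSP (chr6:7541338-7586714), the plakin that anchors keratin, had 111, 86.5 and 81.8 CPM in SCC15 +YBX1, 822, 813 and 524 in SCC25 +YBX1 and 1141, 1670.0 and 1208 in OKF6. It was 7.64-fold lower in SCC15 than in SCC25 (log2 change -2.93 ± 0.24, adjusted p = 4.06e-06, limma) and 14.3-fold lower than in OKF6 (-3.84 ± 0.24, adjusted p = 5.29e-07). PERP (chr6:138088505-138107419), a membrane protein of desmosomes and a target of p63, had 90.7, 118 and 92.4 CPM in SCC15 +YBX1, 1051, 971 and 850 in SCC25 +YBX1 and 1657, 1806 and 2270.5 in OKF6. PERP was 9.57-fold lower than in SCC25 (adjusted p = 6.49e-07, limma) and 19.0-fold lower than in OKF6 (adjusted p = 1.32e-07). For both genes the 3 lines formed separate levels, lowest in SCC15 and highest in OKF6.

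SCC25 differed from OKF6 in some of these genes and not detectably in others. DSG3, DSC2, DSC3, PKP2, DSP and PERP were lower in SCC25, and DSG2, JUP, PKP1 and PKP3 did not pass the test. That made 6 of 10 called lower, where 11.3% of all genes were, and 0 called higher, where 18.9% were. The replicates of the same 6 lay below OKF6 without overlap, against 18.1% of all genes. The median log2 change over the 10 was -0.95, and 0.13 over all genes. This comparison shares its libraries with both SCC15 comparisons.

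The largest estimate was that of DSG3, 7.16-fold lower (log2 change -2.84 ± 0.55 SE, adjusted p = 0.00329, limma). DSC2 and PKP2 were both 3.16-fold lower (adjusted p = 0.0029 and 0.00463), DSC3 2.33-fold (0.00144) and PERP 1.99-fold (0.00453). DSP was 1.87-fold lower (log2 change -0.90 ± 0.24, adjusted p = 0.0173), and this call rests on the third SCC25 +YBX1 library, whose 524 CPM is the lowest of the group. Without that library the change was -0.69 (adjusted p = 0.0768), and with only these 2 lines in the model the adjusted p was 0.0538.

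The other 4 genes had wide intervals. The log2 change, SCC25 minus OKF6, was 0.02 for DSG2 (95% interval -0.75 to 0.79, adjusted p = 0.978, limma), -0.09 for PKP1 (-1.57 to 1.39, adjusted p = 0.942), -0.64 for PKP3 (-2.22 to 0.95, adjusted p = 0.533) and 0.41 for JUP (-0.22 to 1.04, adjusted p = 0.302). OKF6 replicate 1 had the highest DSG2 (369 CPM), JUP (1669 CPM) and PKP1 (1258 CPM) of its group and the lowest PKP3 (69.9 CPM). Without it JUP was called higher in SCC25 (0.72, adjusted p = 0.0224), so that 7 of 10 genes were called, while the share of all genes called rose from 30.2% to 41.0%, and DSG2 was at 0.49 (adjusted p = 0.0726), PKP3 at -1.28 (adjusted p = 0.159) and PKP1 at 0.06 (adjusted p = 0.970). The sign of DSG2 also turned with quantile normalization, to -0.21.

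**Figure D2:**
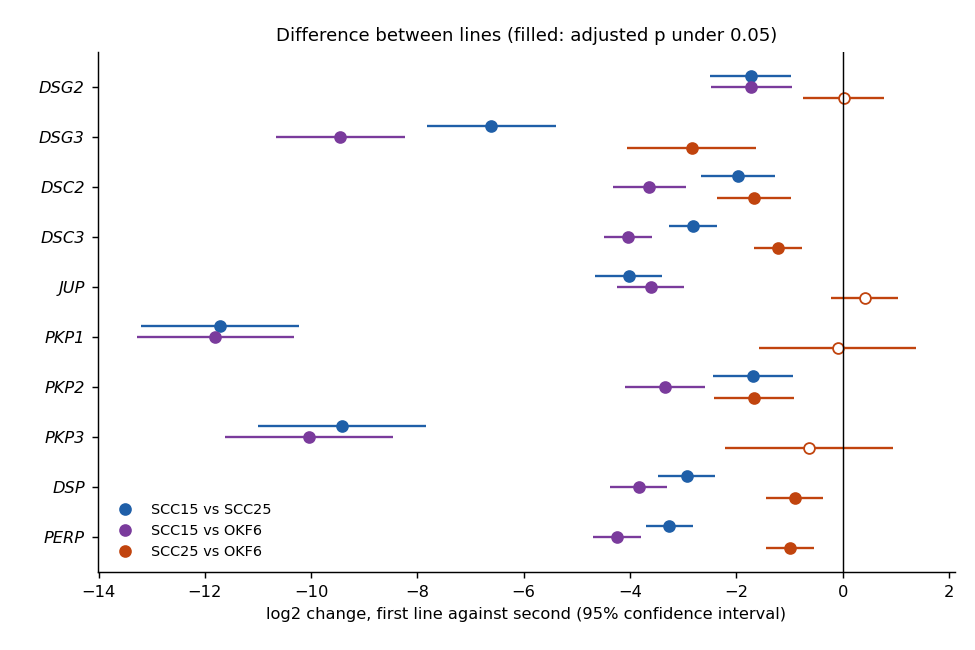
Log2 change of each desmosome gene between lines (x axis) with its 95% confidence interval (limma, n = 3 per line); filled points have an adjusted p under 0.05. All 20 changes of SCC15 are filled and left of 0, and those of SCC25 against OKF6 are filled for 6 genes and open for DSG2, JUP, PKP1 and PKP3.

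The balance between members within a library differed between the lines. Ratios of 2 genes in the same library, taken with 0.5 added to each read count, are free of library scaling, and only their differences between groups are read, since levels of different genes are not compared. The log2 ratio of DSG3 to DSG2 lay between -2.09 and 0.21 in OKF6, between -4.38 and -2.97 in SCC25 +YBX1 and between -9.51 and -7.71 in SCC15 +YBX1, where DSG3 had at most 1 read and the values are set by the 0.5 added. The ranges did not overlap. The log2 ratio of PKP1 to PKP2 was 4.05 to 4.42 in OKF6, 5.45 to 5.99 in SCC25 +YBX1 and -5.36 to -2.90 in SCC15 +YBX1, so SCC25 stood above OKF6 and SCC15 below both. With 0, 1 and 6 reads of PKP1, the SCC15 values depend on the 0.5 added, and -5.36 is that of the library with 0 reads. DSC3 to DSC2 was -0.15 to 0.41 in OKF6, 0.28 to 0.91 in SCC25 +YBX1 and -0.49 to -0.01 in SCC15 +YBX1, where SCC25 lay above SCC15 and OKF6 overlapped both. JUP to DSP was 0.76 to 1.23 in SCC25 +YBX1, above the ranges in OKF6 (-0.87 to 0.55) and SCC15 +YBX1 (-0.27 to 0.31). PERP to DSP overlapped between all 3 lines, with group means of 0.52, 0.44 and 0.11 in OKF6, SCC25 +YBX1 and SCC15 +YBX1. No test was run on these ratios, which come from the levels already tested.

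**Figure D3:**
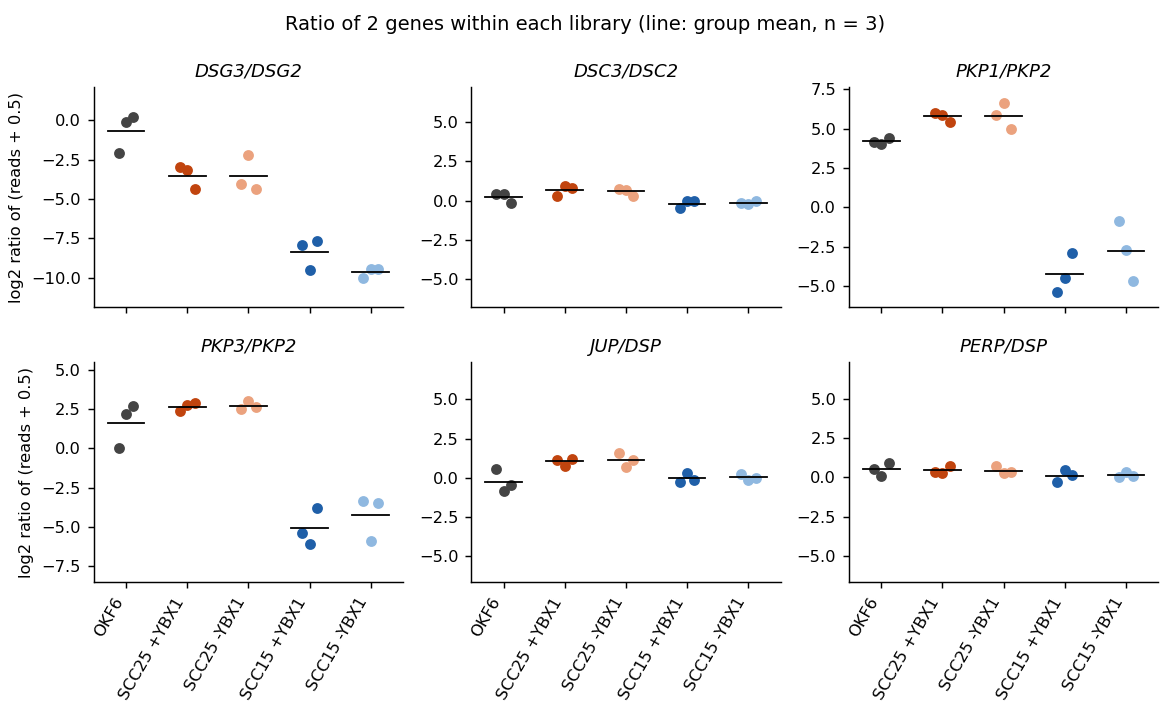
Log2 ratio of the read counts, with 0.5 added to each, of 2 desmosome genes in the same library (y axis, each panel spanning the same number of log2 units) for the 5 groups (x axis), with the group mean as a line (n = 3). The DSG3/DSG2, PKP1/PKP2 and PKP3/PKP2 ratios are lower in SCC15, where the values depend on the 0.5 added, while PERP/DSP keeps overlapping ranges.

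The knockdown comparisons ask whether these genes differed after YBX1 knockdown. Every -YBX1 library received doxycycline and no +YBX1 library did, so the drug and the lowered YBX1 cannot be told apart. YBX1, an RNA- and DNA-binding protein of the cold shock domain family, was checked first. It had 107, 79.0 and 97.9 CPM in SCC25 +YBX1 and 38.3, 26.0 and 12.5 in SCC25 -YBX1, and 34.4, 47.0 and 63.8 CPM in SCC15 +YBX1 against 10.2, 13.0 and 8.67 in SCC15 -YBX1. The groups did not overlap in either line, but over all genes neither log2 change, -2.01 ± 0.35 in SCC25 and -2.15 ± 0.35 in SCC15 (SE), passed the threshold (adjusted p = 0.290 and 0.326, limma). Reads at the 3′ end measure the remaining mRNA and not the edit itself.

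No change of a desmosome gene was detectable with YBX1 knockdown in either line. The +YBX1 libraries used here are those of the line comparisons. In SCC25, 0 of 10 were called, as were 0% of all genes (limma). At an unadjusted p under 0.05 there were 0 of 10, against 3.09% of all genes, and 0 of 10 without overlap, against 7.31%. In SCC15 also 0 of 10 were called, with 0% of all genes, 0 of 10 had an unadjusted p under 0.05, against 2.32%, and 1 of 10 did not overlap, against 7.04%. That gene was DSG3, with 0 reads in all 3 SCC15 -YBX1 libraries and 1, 0 and 1 in SCC15 +YBX1, both at the floor, so no fold is given. The difference between the knockdown changes of the 2 lines was called for 0 of 10 and 0% of all genes, with 0 of 10 under an unadjusted p of 0.05 against 2.26%. Voom weights on the recovered reads called 0 of 10 and 0% of all genes in all 3 comparisons too.

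The SCC25 data bound the changes unevenly, with intervals here and for SCC15 from the fit without a replicate block unless stated. JUP had a log2 change of 0.05 (95% interval -0.37 to 0.48), PERP -0.03 (-0.46 to 0.41), DSG2 0.01 (-0.45 to 0.47), DSP -0.02 (-0.53 to 0.48), DSC3 0.08 (-0.46 to 0.61), DSC2 0.15 (-0.42 to 0.71) and PKP2 -0.17 (-0.99 to 0.64). For these 7 genes a 2-fold change lay outside the interval of this fit, which did not pair libraries. DSG3 at -0.01 (-1.29 to 1.26), PKP1 at -0.11 (-1.73 to 1.51) and PKP3 at -0.12 (-1.64 to 1.41) were less tightly bound. PKP1 had 842, 1616 and 507 CPM in SCC25 -YBX1, the highest in replicate 2, which also had the highest DSP (1004 CPM) and DSG3 (33.5 CPM) of the group and a share of 16.2% of its reads in its top 10 genes.

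In SCC15 the 7 genes with more than a few reads showed log2 changes from -0.48 (PKP2, 95% interval -1.29 to 0.34) to 0.02 (DSG2, -0.44 to 0.49). DSP was at -0.22 (-0.73 to 0.29), PERP at -0.19 (-0.62 to 0.25) and JUP at -0.14 (-0.56 to 0.29). In the same-numbered pairs PKP2 was lower in -YBX1 in 3 of 3 (-0.80, -0.25 and -0.38 log2), as was PERP (-0.33, -0.22 and -0.01). In SCC25 each was lower in 2 of 3, with PKP2 at 0.12 in pair 3 and PERP at 0.30 in pair 2. The share of all genes lower in 3 of 3 pairs was not computed, so these signs are not read as a change. The replicate block gave same-numbered libraries of both lines a shared effect, so it did not pair libraries within a line. With this block PKP2 had an interval of -1.25 to 0.30 and PERP of -0.57 to 0.20. In that fit 0 of 10 genes had an unadjusted p under 0.05 in SCC15 or in SCC25, against 2.46% and 3.38% of all genes (limma). PKP1 had 8, 4 and 1 reads in SCC15 -YBX1 against 0, 1 and 6 without doxycycline, and PKP3 had 1, 0 and 3 against 0, 0 and 3. The replicates of both overlapped. DSG3, PKP1 and PKP3 thus stayed close to 0 in all 6 SCC15 libraries.

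**Figure D4:**
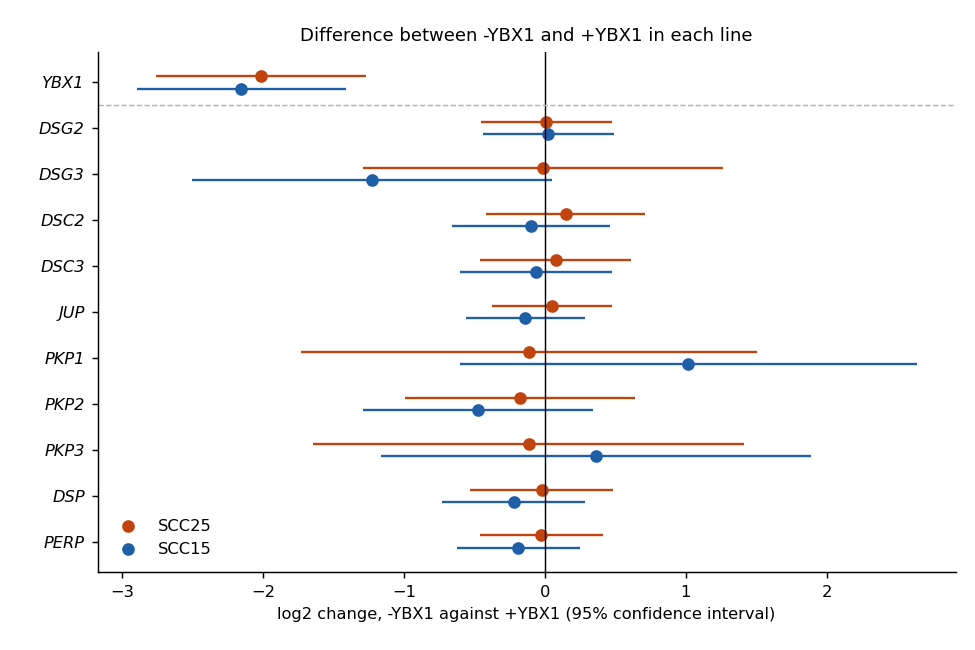
Log2 change of YBX1 and of each desmosome gene, -YBX1 against +YBX1 (x axis), with its 95% confidence interval (limma, n = 3 per group), in SCC25 and SCC15. The interval of YBX1 lies left of 0 in both lines, and the interval of every desmosome gene includes 0.

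Other components of the junction were lower in SCC15 as well. The counts of the lists stand beside the shares of all genes called lower and higher, which were 23.6% and 20.0% for SCC15 against SCC25, 23.4% and 26.9% against OKF6, and 11.3% and 18.9% for SCC25 against OKF6. The lists were chosen with earlier results of these data known, so an excess over these shares is not independent evidence. Of 7 further desmosome and corneodesmosome genes, 4 were measured, and 4 were called lower in SCC15 than in SCC25 (0 higher), 3 lower than in OKF6, and 1, KLK7, lower in SCC25 than in OKF6. DSG1, the desmoglein of the upper layers, had 0 reads in each SCC15 +YBX1 library and 1 to 17 in SCC25 +YBX1, at least 9.82-fold lower with 3 reads over the group as the floor. The proteases KLK5 and KLK7, which cut corneodesmosomes, had pooled ratios of SCC25 to SCC15 of 226 (95% counting interval 62.2 to 1875) and 52.6 (17.6 to 258). These rest on 2 and 3 reads in SCC15 +YBX1. PKP4, which also serves other junctions, was lower by far less, at a log2 change of -0.55 (adjusted p = 0.0323, limma), and did not pass against OKF6 (-0.06, adjusted p = 0.793).

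Among 6 plakins and related filament linkers, 5 were called lower in SCC15 than in SCC25 and 5 lower than in OKF6. The cornified envelope plakin EVPL had 0 reads in SCC15 +YBX1, at least 153-fold below SCC25 and 289-fold below OKF6 with the same floor of 3 reads over the group, and PPL had 3 reads in all there against 135 in SCC25 +YBX1. DST, PLEC and MACF1, which also link filaments outside desmosomes, had log2 changes of -2.47, -3.45 and -0.76 against SCC25, and SYNM did not pass (-1.27, adjusted p = 0.102, limma). SCC25 against OKF6 had 2 called lower (DST and PPL) and 1 higher (SYNM, 2.24). Of 12 intermediate filament genes, the keratins and vimentin (VIM), 12 were called lower in SCC15 than in SCC25 and 10 lower than in OKF6, with VIM called higher against OKF6 (1.72). KRT7 had 0 to 4 reads in SCC15 +YBX1 and KRT15 had 0. In SCC25 against OKF6, 3 of the 12 were higher (VIM, KRT18 and KRT8) and 1 lower (KRT15).

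Of 16 measured genes of desmosome assembly and turnover, from a list of 17, 8 were called lower in SCC15 than in SCC25 and 0 higher, beside 23.6% and 20.0% of all genes. The 6 with the lowest adjusted p were CAV1, the caveolar coat protein (log2 change -8.11), GSK3B, a kinase that acts on desmoplakin (-2.14), the growth factor receptor EGFR (-4.22), the kinesin KIF5B (-1.16), the Golgi calcium pump ATP2C1 (-1.03) and the sheddase ADAM10 (-2.06). Against OKF6, 9 were lower in SCC15 and 3 higher, beside 23.4% and 26.9%. In SCC25 against OKF6, 2 were higher, PRKCA, a kinase that loosens desmosomes (2.87), and GOLGA7, a palmitoylation cofactor (0.89), and 0 lower, beside 18.9% and 11.3% of all genes.

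Of 12 transcription factors known to act at desmosome genes, 8 were called lower in SCC15 than in SCC25 and 3 higher, beside 23.6% and 20.0% of all genes. TP63, the master regulator of stratified epithelium, had 1 read over the 3 SCC15 +YBX1 libraries against 2260 in SCC25 +YBX1, a ratio of 2663 (95% counting interval 477 to 105218). GRHL2, a grainyhead factor of epithelial junctions, had 196 reads in SCC25 +YBX1 against 1 in SCC15 +YBX1, a ratio of 231 (41.0 to 9167). KLF5 and KLF4 were lower by log2 changes of -3.93 and -4.46. The repressors ZEB1, with 81 to 141 reads against 7 or 8 (log2 change 3.55, adjusted p = 0.000431, limma), and ZEB2 (3.18) were higher in SCC15. ZEB1 and ZEB2 fall among the genes named here through the mesenchymal markers, of which 3 were higher and 4 lower in SCC15 than in SCC25. SNAI2, another repressor, was among those lower (-1.99), as were FN1 (-6.79) and VIM (-1.38), and CDH2 was higher (2.05). Of the epithelial markers, 8 of 8 were called lower in SCC15 than in SCC25 and 7 of 8 lower than in OKF6, while 2 (KRT18 and KRT8) were higher in SCC25 than in OKF6. The keratins among them (KRT5, KRT14, KRT17, KRT8, KRT18 and KRT19) were already counted with the intermediate filament genes above. The same holds for VIM of the mesenchymal markers. The mesenchymal markers had 5 higher and 2 lower in SCC15 than in OKF6 and 4 higher in SCC25 than in OKF6 (CDH2, VIM, FBN1 and ZEB1). Of the fibroblast markers, LUM was higher (3.25) and COL1A1 lower (-1.57) in SCC15 than in SCC25. Against OKF6, SCC15 had 8 of the 12 factors lower and 4 higher (23.4% and 26.9% of all genes), and SCC25 had 3 lower and 2 higher (11.3% and 18.9%). With YBX1 knockdown, 0 genes of any of these lists were called in either line (limma).

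Away from the junction, the genes whose profile lay closest to the median profile of the 10 were taken from those above the median level of all genes. The distance is the root mean square difference over the 5 group means, each gene centred on its own mean. Among the nearest 5 were LMNA, the gene of lamin A and C (distance 0.10 log2 units), TGFBR2, a TGF-beta receptor (0.13), GPSM2, a spindle orientation protein (0.14), and MT1X, a metallothionein (0.17). LMNA had mean log2 CPM of 8.38 in OKF6, 7.55 in SCC25 +YBX1 and 4.19 in SCC15 +YBX1. Among the members, PERP (0.07), DSP (0.11) and DSC3 (0.15) were nearest to that median profile and PKP1 (3.78), PKP3 (2.88) and DSG3 (2.38) furthest from it. Taken over the 15 libraries in place of the group means, 2 of the nearest 5 were again among them.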

How the data were processed

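Libraries were QuantSeq 3′ FWD. The authors used Cutadapt for trimming, HISAT2 with hg38 for alignment, featureCounts for counting (versions not given in the sources used here) and limma for normalisation and a filter on genes. The authors deposited log2 CPM, with 0.5 added to each read count and an effective library size as the divisor, in a cell line table and a YBX1 table, which share 6 libraries. Whole reads were recovered for 100% of values within 0.05 reads, and CPM were computed from them. The deposited values were tested in R 4.3.3 with limma 3.58.1 (lmFit, eBayes with a variance trend, all groups of a table, two-sided, Benjamini-Hochberg over 12995 genes, threshold 0.05). Low genes are also given as pooled read ratios with exact 95% intervals; those with a library left out, and the intervals under the replicate block, were added after the values were seen. The code was tested on simulated reads. The desmosome genes and all lists were chosen with earlier results of these data known. Named genes are the 10, YBX1, up to 6 of each list by adjusted p, and the 5 nearest profiles; DSG2 and DSG3 promoters were chosen for printing after their values were seen. A few genes that this rule names are not reported here. In the knockdown comparisons the labels' replicate numbers pair the samples: same-numbered libraries deviated together (r 0.143 to 0.462 in SCC25 and 0.221 to 0.514 in SCC15), while in the line comparisons they did not throughout. The 75-base pieces of the last 500 bases of each gene, mapped with minimap2 2.31 to hg38, had 0% that mapped as well elsewhere for the 10 genes. Antisense or other genes overlap DSP, DSG2, DSC2 and PKP2, none within those 500 bases, and the strand setting of the counting is not stated. Figures used matplotlib 3.10.9 in Python 3.11.15.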

Additional observations from a re-analysis of the deposited data

How the results depend on the processing

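The number of desmosome genes called was 10 of 10 under all 19 alternatives in both SCC15 comparisons, 5 to 7 under the 19 for SCC25 against OKF6, and 0 under every alternative for the knockdown comparisons. Over the alternatives the share of all genes called was 29.8% to 59.6% for SCC15 against SCC25 and 37.1% to 57.2% for SCC15 against OKF6. It was 17.0% to 41.0% for SCC25 against OKF6. With knockdown it was at most 0.0462%, so the 0 is not particular to the desmosome genes. The alternatives were each library left out in turn, a threshold of 0.01, 1 CPM added, voom weights, a robust or untrended variance, the upper quartiles of genes alone, quantiles or medians of the libraries set equal, a fit of the compared groups by themselves, and the replicate block. With the replicate block, 10, 10 and 6 genes were called between lines, beside 41.9%, 49.3% and 28.5% of all genes. With knockdown 0 were called, and no call of a desmosome gene changed. Leaving out each library in turn gave 10 to 10, 10 to 10 and 5 to 7 called between lines and 0 to 0 with knockdown. For SCC25 against OKF6, DSP lost its call with only the groups compared and without SCC25 +YBX1 replicate 3 (and JUP gained one without OKF6 replicate 1); at 0.01 there were 5 calls. Equal medians and quantiles moved the median of all genes from -0.01 to 0.14 and 0.17 for SCC15 against SCC25, and quantiles moved it from 0.13 to -0.05 for SCC25 against OKF6. Over all genes, 6 were called in SCC25 without SCC25 -YBX1 replicate 2 and 1 in SCC15 without SCC25 -YBX1 replicate 3, none of them a desmosome gene. In an alternative chosen after seeing the data, the pooled PKP1 ratio over SCC15 moved to 11478 for SCC25 and 11708 for OKF6 without SCC15 +YBX1 replicate 3. Reads limit DSG3, PKP1 and PKP3 in SCC15, where changes with knockdown were not detectable at this depth.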
